A study of Oryza sativa with 6 samples.

Results

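The chlorophyll (Chl) cycle and Chl breakdown were followed here through 5 rice genes, CAO, NOL, NYC1, SGR and RCCR1, out of 17905 genes that the array measured with a probe set listed for that gene alone. The members were all probe sets whose single listed gene was among these 5, which gave 7 probe sets: 1 each for CAO, NYC1 and RCCR1 and 2 each for NOL and SGR. A probe set is the group of short oligonucleotides on the array that reads 1 transcript. The rule that picked the probe sets used gene names and no expression value, although the 5 genes themselves were chosen with earlier results of these data known.

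RNA came from the third leaf of plants of the rice cultivar N22 (Nagina 22), 30 days old, detached and kept in the dark for 72 h, a treatment called dark-induced senescence (DIS). BA-treated leaves (3 arrays) were held in 2 mg/ml 6-benzyl adenine, abbreviated BA, which is a cytokinin made by synthesis. Untreated leaves (3 arrays) were held in the same NaOH and tween20 solution without BA. Both groups were the same cultivar, detached and kept dark for the same time, no array of freshly cut leaves was among those compared, and 1 label field gives 2 h of darkness where the extraction protocol and the study's methods give 72 h. The study describes the 3 replicates of a group as biological, and the labels give a leaf weight per replicate but no plant numbers.

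Chl a and Chl b are the green pigments of the photosynthetic antenna, and plants can turn each into the other through the Chl cycle. CAO, chlorophyllide a oxygenase, makes the b form. The Chl b reductases NYC1 and NOL, which were shown in rice to bind each other, start the way back, and a further enzyme, HCAR, completes the return to Chl a. In senescing leaves this return opens breakdown, since Chl b has to become Chl a before the SGR (STAY-GREEN) protein, a magnesium dechelatase, can remove its magnesium. The ring is then opened by PAO, and the red catabolite that results is reduced by RCCR. In rice, loss of NYC1, NOL or SGR leaves yellowing leaves green, and cytokinins such as BA are known to slow yellowing.

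Each array gave 1 deposited signal per probe set on a linear scale in arbitrary units. The lowest signal was 16 on all 6 arrays and the median signal lay between 22.5 and 23.3, so every member stood above the dim end of the array. Changes are given as differences of mean log2(signal + 1), BA-treated minus untreated, and adjusted p-values are from limma with Benjamini-Hochberg adjustment over all 57258 rice probe sets. Signals of different probe sets cannot be set against each other as transcript amounts. In leaf RNA, a lower signal from fewer cells that express a gene and one from less RNA per cell cannot be told apart.

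None of the 7 probe sets had an adjusted p under 0.05 by limma, a threshold that 0.159% of all rice probe sets passed (91 of 57258). The study's own thresholds, over 1.5-fold and an unadjusted p under 0.05, were passed by the 2 probe sets of NOL, both lower with BA, and by no probe set of the other 4 genes. Across the array 2.16% of probe sets passed these thresholds as lower with BA and 1.73% as higher. An ordinary pooled-variance test, without limma's shared spread, left 0 of the 7 with an unadjusted p under 0.05. The BA-treated and untreated values overlapped in 7 of 7 probe sets, whereas 14% of all rice probe sets had no overlap between the groups. By gene, 4 changes lay below 0 and 1 above, with a median of -0.20, beside a median of -0.0035 over all rice probe sets.

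**Figure D1:**
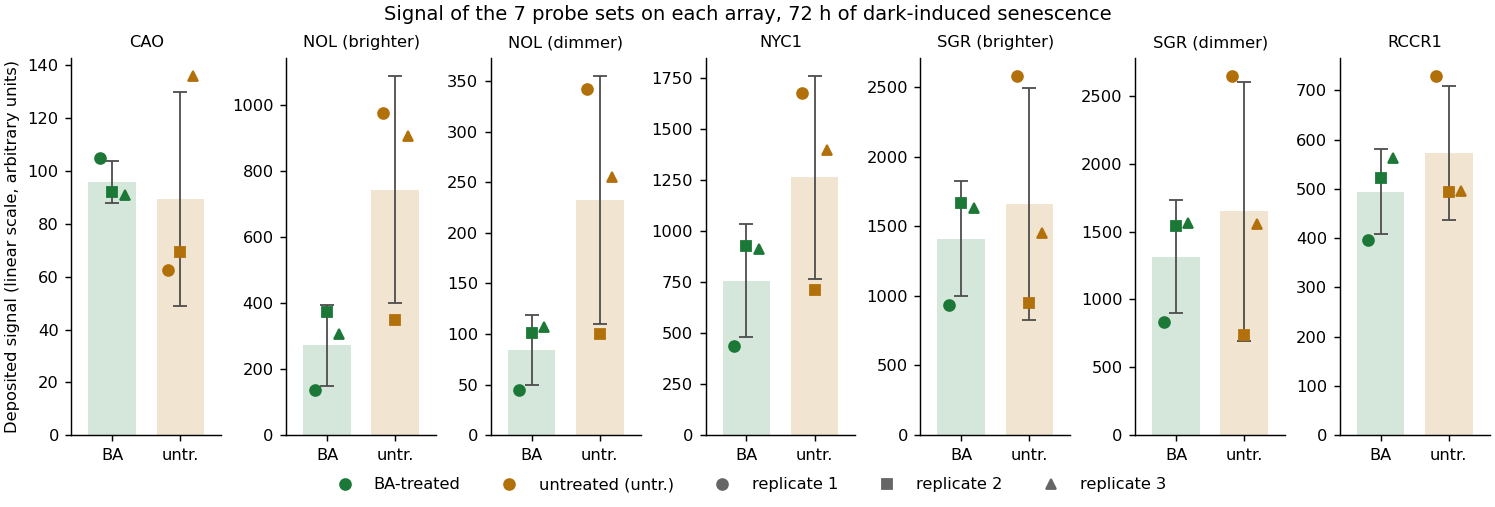
Deposited signal (linear scale, arbitrary units, each axis from 0) of the 7 probe sets on 3 BA-treated (left, green) and 3 untreated arrays (right, brown), with symbols for the replicates, bars for the means and whiskers for the SD. BA replicate 1 and untreated replicate 2 are the lowest of their groups in every panel except CAO, and the groups overlap in all 7 panels.

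CAO (gene identifier 4349433), the enzyme that forms the b pigment, showed little difference between the groups. Its probe set read 105, 92.0 and 90.8 in BA-treated leaves, against 62.6, 69.5 and 136 in untreated leaves. The BA-treated values lay close together, within 1.16-fold of each other, and lay inside the 2.17-fold range of the untreated values. The means were 96.0 ± 7.95 with BA and 89.4 ± 40.6 without it (SD, n = 3 each). The log2 change was 0.19, with a 95% interval from -0.54 to 0.91 (limma, adjusted p = 0.93). Untreated replicate 3 set the upper end of that range alone. Without it the change was 0.53 (limma, unadjusted p = 0.0045, adjusted p = 0.21), and without untreated replicate 1 it was -0.02. Untreated replicate 3 was also the array with the high 28S rRNA control, at 346 against 28.3 to 47.1 on the other 5 arrays, and the part of this in the CAO value was not tested.

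NOL (gene identifier 4333604), a Chl b reductase of the thylakoid, had the largest difference of the 5 genes, and both of its probe sets showed it. The brighter one read 135, 372 and 307 in BA-treated leaves, against 974, 348 and 906 in untreated leaves. All 3 BA-treated values stood far below untreated replicates 1 and 3, and the only overlap came from untreated replicate 2, which lay just under BA replicate 2. The means were 272 ± 122 with BA and 743 ± 343 without it (SD, n = 3 each), a 2.7-fold lower level on the log scale. The log2 change was -1.43 with an SE of 0.54 and a 95% interval from -2.75 to -0.11 (limma, unadjusted p = 0.038, adjusted p = 0.54). A smaller p was found for 6.96% of all rice probe sets.

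The dimmer NOL probe set read 44.3, 101 and 107 in BA-treated leaves, against 342, 100 and 255 in untreated leaves. BA replicate 1 was again the lowest array, and again only untreated replicate 2 reached down to the BA-treated values, just under BA replicates 2 and 3. The log2 change was -1.38, with a 95% interval from -2.73 to -0.03 (limma, unadjusted p = 0.046, adjusted p = 0.58). On each of the 6 arrays the brighter probe set stood above the dimmer one by 1.5 to 1.87 on the log2 scale, by 1.66 on average with BA and by 1.71 without it. The pair moved in parallel, and being 2 readings of 1 gene on the same RNA they are not independent evidence of it.

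The NOL change kept its sign when any 1 array was left out, but not always its unadjusted p under 0.05. For the brighter probe set the change was -1.17 without untreated replicate 1, -1.22 without untreated replicate 3, -1.0 without BA replicate 1 and -1.58 without BA replicate 3, where the unadjusted p by limma was 0.11, 0.11, 0.097 and 0.061. The change was -1.91 without untreated replicate 2 and -1.72 without BA replicate 2, where the unadjusted p was 0.009 and 0.037. NOL also varied widely within groups. Its highest value was 2.75-fold its lowest among BA-treated leaves and 2.79-fold among untreated leaves, and 94.7% of brighter rice probe sets, those above the median, had a smaller residual SD.

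NYC1 (gene identifier 4327178), the partner reductase, lay lower with BA on average without passing any threshold. Its probe set read 436, 926 and 912 in BA-treated leaves, against 1680, 713 and 1398 in untreated leaves. Untreated replicates 1 and 3 were above all BA-treated values and untreated replicate 2 was below BA replicates 2 and 3. The means were 758 ± 279 with BA and 1264 ± 498 without it (SD, n = 3 each). The log2 change was -0.73, with a 95% interval from -1.78 to 0.33 (limma, adjusted p = 0.79), so that both a level 0.291 times that of untreated leaves and one 1.25 times it lie within the interval. The change was -0.37 without BA replicate 1, -0.48 without untreated replicate 1 and -1.09 without untreated replicate 2.

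SGR (gene identifier 4347672), the magnesium dechelatase, was bright on every array and gave no clear difference. The brighter probe set read 935, 1668 and 1628 in BA-treated leaves, against 2579, 952 and 1451 in untreated leaves. The other read 833, 1540 and 1567 in BA-treated leaves, against 2647, 741 and 1558 in untreated leaves. In both, the untreated leaves held the highest value, and in the second also the lowest, so the BA-treated range lay largely or wholly within the untreated one. The log2 changes were -0.16 (95% interval from -1.17 to 0.85) and -0.20 (from -1.44 to 1.04), each with an adjusted p of 0.96 by limma. Their sign turned without untreated replicate 1, to 0.21 and 0.23, and without BA replicate 1, to 0.11 and 0.10. The 2 probe sets differed by -0.10 to 0.36 on the log2 scale over the 6 arrays.

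RCCR1 (gene identifier 4348519), for red Chl catabolite reductase, was the steadiest of the 4 breakdown genes across arrays. Its probe set read 397, 523 and 562 in BA-treated leaves, against 729, 493 and 496 in untreated leaves. Apart from the high value of untreated replicate 1 and the low value of BA replicate 1, the remaining 4 arrays lay between 493 and 562. The means were 494 ± 86.0 with BA and 573 ± 135 without it (SD, n = 3 each). The log2 change was -0.20, with a 95% interval from -0.71 to 0.31 (limma, adjusted p = 0.90). It was -0.02 without untreated replicate 1 and -0.05 without BA replicate 1.

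**Figure D2:**
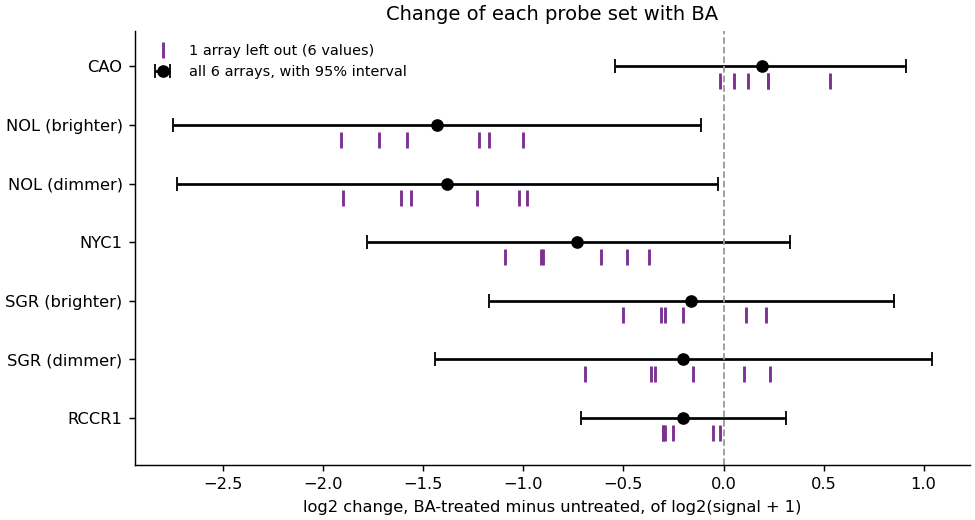
Log2 change of each probe set (dots, all 6 arrays; whiskers, 95% interval), BA-treated minus untreated, with the 6 values obtained by leaving out 1 array at a time (purple ticks). The NOL intervals end at -0.11 and -0.03, below 0, those of the other 5 probe sets cross 0, and the ticks of CAO and SGR lie on both sides of 0.

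Ordered by change, the genes ran from NOL (-1.43) through NYC1 (-0.73), RCCR1 (-0.20) and SGR (-0.16) to CAO (0.19). Neighbours in this order had intervals that overlapped, and no neighbouring pair could be told apart by its intervals. The 4 genes other than CAO shared an array pattern, with BA replicate 1 the lowest of the BA-treated and untreated replicate 2 the lowest of the untreated arrays. That held for 6 of the 7 member probe sets, including both probe sets of NOL and of SGR. Among all rice probe sets it held for 14.6%, and among the brighter ones for 16.8%. The pattern was read from these member values, so its higher share among them is a description and no test. For RCCR1 the untreated order rested on 493 against 496. CAO ran otherwise, with BA replicate 1 the highest of the BA-treated arrays. Replicate 1, 2 and 3 have no order in time, and the positions describe arrays only.

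**Figure D3:**
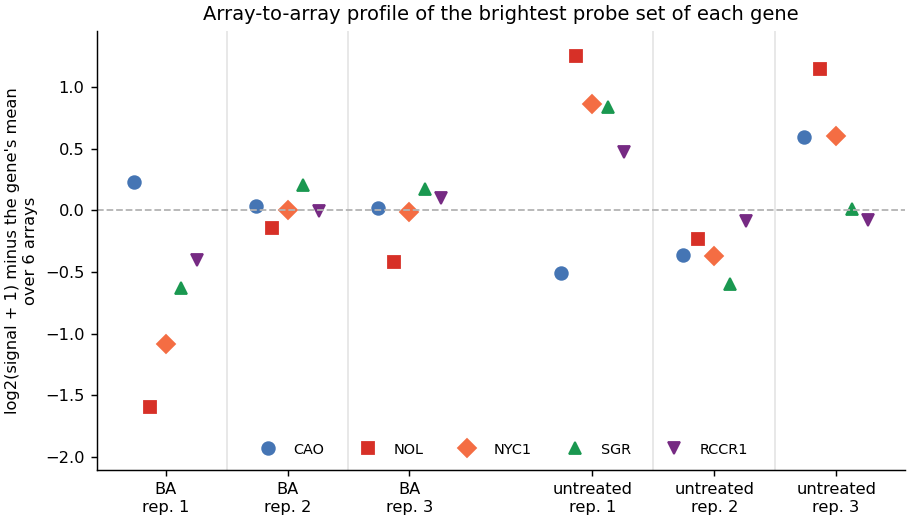
Log2(signal + 1) of the brightest probe set of each gene on each array, minus that gene's mean over the 6 arrays, for 3 BA-treated (left) and 3 untreated arrays (right). NOL, NYC1, SGR and RCCR1 are lowest in their groups on BA replicate 1 and untreated replicate 2, with the widest spread for NOL, while CAO is lowest on untreated replicate 1.

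Because these 4 genes shared this array pattern, RCCR1 only narrowly, the difference between 2 of them was taken within each array. This choice was made after the values were seen. NOL stood below NYC1 by more in BA-treated leaves: NOL minus NYC1 was -1.68, -1.31 and -1.57 on the log2 scale with BA, against -0.79, -1.03 and -0.63 without it. These differences did not overlap, and their means were shifted by -0.71, with a gap of 0.28 between the groups. NOL minus SGR was -2.78, -2.16 and -2.40 with BA, against -1.40, -1.45 and -0.68 without it, a shift of -1.27 and again no overlap. NYC1 minus SGR was -1.10, -0.85 and -0.83 with BA, against -0.62, -0.42 and -0.05 without it, a shift of -0.56 with a gap of 0.22.

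Among the 10 gene pairs, 5 had no overlap between the groups, the other 2 being NOL minus CAO (shift -1.62) and NYC1 minus CAO (shift -0.91, with a gap of 0.02). All 5 of these pairs hold NOL or NYC1. The pairs share genes and are not independent, and a shift is the difference of the log2 changes given above for its 2 genes. Each of the 5 had an exact two-sided permutation p of 0.1, the smallest that 3 arrays against 3 allow, and 0.2 after Benjamini-Hochberg adjustment over the 10 pairs, so none could pass 0.05. The remaining pairs overlapped, among them SGR minus RCCR1 with a shift of 0.04. Such a separation was common for NOL. With each of 28622 other brighter probe sets in the place of the second gene, the NOL difference lay lower with BA and without overlap in 44.8% of cases, the NYC1 difference in 15.6% and the SGR difference in 2.96%. The lower position of NOL within an array was therefore not particular to NYC1 or SGR as partners.

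**Figure D4:**
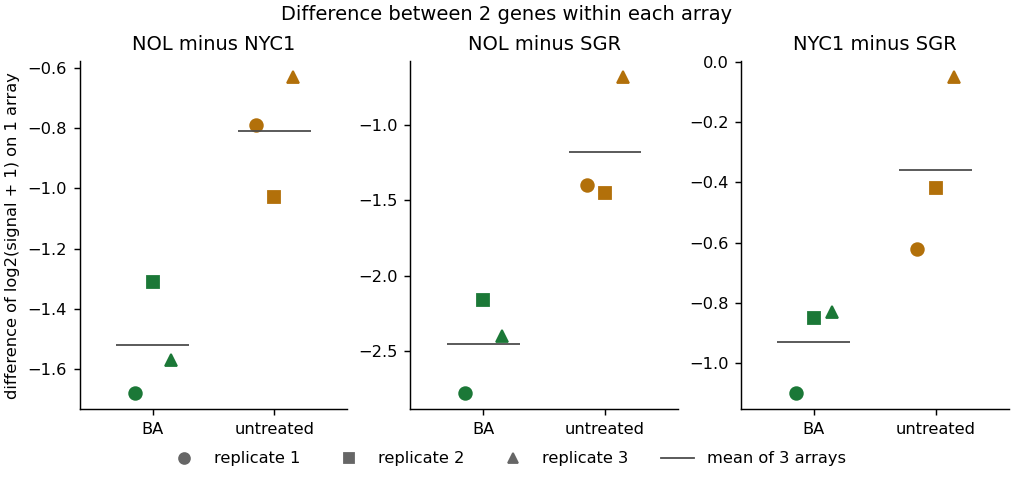
Difference of log2(signal + 1) between 2 genes on the same array, for 3 BA-treated (left, green) and 3 untreated arrays (right, brown), with lines at the group means; the vertical axes differ. In all 3 pairs every BA-treated array lies below every untreated array, by gaps of 0.28, 0.71 and 0.22.

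The genes most like each member were sought among 2421 other named genes, by the root mean square (RMS) difference between the centred log2 profiles over the 6 arrays. Nearest to NOL were OsbZIP37, a bZIP transcription factor gene, and Hox22, a homeodomain-leucine zipper gene, each at an RMS difference of 0.21, where the NOL profile itself had an RMS of 0.97. OsbZIP37 read 49.6, 109 and 108 in BA-treated leaves, against 285, 143 and 388 in untreated leaves. Hox22 read 40.5, 87.5 and 97.3 in BA-treated leaves, against 354, 127 and 257 in untreated leaves. Unlike NOL, both had no overlap between the groups, with log2 changes of -1.57 and -1.67 (limma, adjusted p = 0.39 and 0.38).

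For NYC1 (RMS 0.63) the nearest were GA20OX3, a gibberellin oxidase gene, at 0.12 and APG4B, an autophagy protease gene, at 0.19. For SGR (RMS 0.50) they were OsbZIP70 at 0.07 and HO1, a heme oxygenase gene, at 0.11. HO1 read 722, 1139 and 1035 in BA-treated leaves, against 1945, 662 and 912 in untreated leaves, so that, as with the dimmer SGR probe set, untreated leaves held both the highest and the lowest value. For RCCR1 (RMS 0.26) they were OsWNK7 at 0.05 and ERS2, an ethylene receptor gene, at 0.08. For CAO (RMS 0.37) they were OSA15, also named PSAG, a photosystem I subunit gene, at 0.12 and LOL4 at 0.13. These 8 genes all overlapped between the groups. With 6 arrays and so many genes a near profile is a description of these arrays and was not tested.

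Other genes around Chl were read from lists of named genes. Of the genes that act beside the members in breakdown, only THF1 could be read. HCAR, NYC3, PAO and the chlorophyllases were not analysed here. THF1 (gene identifier 4343584) encodes a thylakoid formation protein, and its rice mutant nyc4 stays green in the dark. Its brightest probe set read 735, 1016 and 878 in BA-treated leaves, against 1575, 1272 and 1175 in untreated leaves. A second read 421, 514 and 485 in BA-treated leaves, against 1028, 843 and 721 in untreated leaves. Every BA-treated value lay below every untreated one in both. The log2 changes were -0.61 (95% interval from -1.02 to -0.21, adjusted p = 0.34) and -0.86 (from -1.23 to -0.48, adjusted p = 0.15, both by limma). The remaining, dim probe set of THF1 overlapped, with a change of 0.06. THF1 was steadier than NOL, and its smaller change had the narrower interval.

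Chl synthesis was represented by 11 measured genes, of which 7 lay above 0 and 4 below, with a median of 0.06 beside -0.0035 over all rice probe sets. None passed an adjusted p of 0.05 by limma, and 3 of the 11 had an unadjusted p under 0.05, as did 8.48% of all rice probe sets. CHLH, the large subunit of the magnesium chelatase that starts the Chl branch, read 46.1, 69.4 and 63.7 in BA-treated leaves, against 25.3, 36.1 and 45.3 in untreated leaves (log2 change 0.75, limma, adjusted p = 0.48). CHLP, the geranylgeranyl reductase that supplies the phytol tail, read 126, 115 and 92.6 in BA-treated leaves, against 43.5, 90.2 and 71.0 in untreated leaves (0.75, adjusted p = 0.54). Both lay higher with BA without overlap and passed the study's thresholds over all arrays. With 1 array left out the change of CHLH ran from 0.53 to 0.94 and that of CHLP from 0.46 to 0.98, and each lost its unadjusted p under 0.05 in 4 of the 6 cases and in the ordinary test (0.065 and 0.088). PORB, a protochlorophyllide oxidoreductase, read 184, 137 and 140 in BA-treated leaves, against 48.0, 139 and 153 in untreated leaves. Its change was 0.59 (95% interval from -0.52 to 1.70) and only 0.06 without untreated replicate 1, the low array.

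On the other side, HEMD, uroporphyrinogen III synthase, read 24.4, 29.2 and 27.7 in BA-treated leaves, against 34.6, 35.6 and 35.4 in untreated leaves. These signals are dim but did not overlap (log2 change -0.37, limma, adjusted p = 0.27). CHLD, a further magnesium chelatase subunit, and CHLG, Chl synthase, had changes of -0.39 and -0.38 with overlapping groups. The CHLD interval ran from -0.85 to 0.07. CHLI, the remaining magnesium chelatase subunit, was dim and had a change of 0.01, and a second, dim probe set of CHLH had a change of -0.15.

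The light-harvesting list held 1 measured gene, CAB2R, a Chl a/b binding protein gene, at -0.20 (95% interval from -1.57 to 1.17). Its second probe set was at -0.57 (from -2.26 to 1.13). The list was matched by gene name, which most genes lacked, so CAB2R does not stand for the light-harvesting genes as a family. The Golden2-like factors GLK1 and GLK2, activators of chloroplast genes, had changes of 0.17 and 0.26 with overlapping groups. Of 4 genes that mark green leaf, 3 lay higher with BA without overlap: RCA (0.79, Rubisco activase), RBCS1 (0.79, Rubisco small subunit) and petC (1.07, cytochrome b6-f complex). Their adjusted p by limma was 0.31, 0.15 and 0.15, so none passed 0.05. Across all rice probe sets 14% had no overlap in either direction. A second small subunit gene, OsrbcS, was at 0.70 with overlap, and at -0.24 without untreated replicate 2 and -0.10 without BA replicate 1. The summed signal of these 4 genes was 885 to 1380 in BA-treated leaves and 480 to 743 in untreated leaves. The 11 genes that mark seed, root or anther summed to 305 to 317 with BA and 287 to 300 without it, and 9 of the 11 had a mean under 32 in each group, near the floor of the array.

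**Figure D5:**
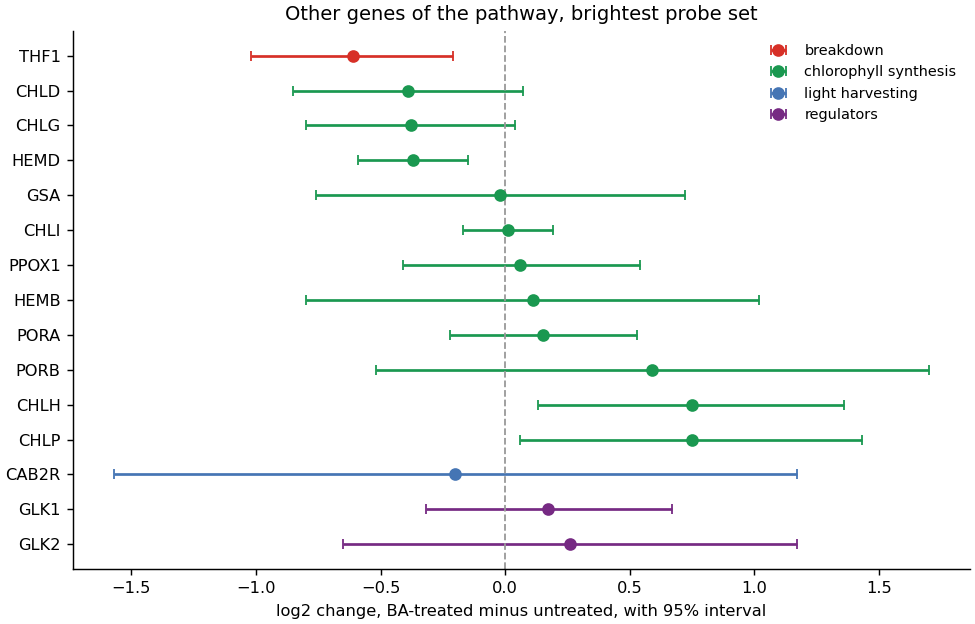
Log2 change, BA-treated minus untreated, of the brightest probe set of other Chl-related genes (dots) with 95% intervals (whiskers), coloured by list. THF1 and HEMD lie below 0 and CHLH and CHLP above 0 with intervals that leave out 0, and the other 11 genes have intervals that cross 0.

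Technical controls separated the groups, which no member probe set did, and were lower on BA-treated arrays. The means of NOL, NYC1, SGR and RCCR1 were also lower there, while those of CAO, RCA, RBCS1 and petC were higher. The 27 probe sets of poly-A control RNAs, which are added before labelling, had a mean log2 signal of 5.51, 6.32 and 6.12 on BA-treated arrays, against 6.38, 6.93 and 7.51 on untreated arrays. The 28S rRNA control read 33.0, 28.3 and 35.4 on BA-treated arrays, against 47.1, 42.1 and 346 on untreated arrays. Neither control overlapped between the groups. BA replicate 1, the array with the lowest NOL, NYC1, SGR and RCCR1 signals of its group, also had the lowest poly-A mean. Untreated replicate 2 did not have the lowest poly-A mean of its group. In the 28S control BA replicate 2 (28.3) and untreated replicate 2 (42.1) were the lowest of their groups. The part of both controls in the member values was not tested. BA replicates 2 and 3 were unusually close, with an SD of their log2 difference over all rice probe sets of 0.16, against 0.416 to 0.615 for the other 14 pairs of arrays. Whether they are separate biological samples could not be checked. If they are not, the BA-treated group holds fewer than 3 samples, and the SDs, intervals and p-values given for n = 3 do not hold. With these 2 arrays averaged as 1 sample the change of the brighter NOL probe set was -1.65, where the unadjusted p by limma was 0.048. For the dimmer NOL probe set it was -1.59, and the unadjusted p of 0.062 no longer met the study's threshold. In the same setting the unadjusted p by limma rose from 0.55 to 0.58 for CAO. It fell from 0.14 to 0.13 for NYC1, from 0.37 to 0.31 for RCCR1, and from 0.71 to 0.57 and 0.70 to 0.59 for SGR.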

How the data were processed

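Total RNA of 6 leaf samples was labelled with biotin and hybridized to Affymetrix rice arrays. Per the labels, the deposited values are intensities on a linear scale that the authors made with PLIER and variance stabilization, 1 for each probe set of an array. RMA is also named in the submitters' notes, its role, all versions and any scaling between arrays being not given in the sources used here. Intensities were taken without further normalization, as log2(signal + 1). The lowest value of every array was 16, which an added constant or a floor would give, and either would shrink the fold changes of dim probe sets.

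The groups were compared by lmFit and eBayes of limma 3.58.1 (R 4.3.3) over 57258 rice probe sets, leaving out 123 control probe sets, with Benjamini-Hochberg adjustment at 0.05. The fit was checked on simulated data. Within-array differences were tested by exact permutation with scipy 1.17.1. The platform annotation listed 1 gene for 22436 of 57381 probe sets, several for 95 and no gene for 34850. Names were joined by gene identifier from the rice assembly ASM3414082v1, which held a name for 2426 of 17905 genes. Where all probe sets of a gene are not given, the brightest stands for it. Probe set classes that can read related transcripts were kept, and cross-reading of paralogs was not tested.

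Every member probe set was named, with all measured partners in breakdown and the regulators, from synthesis and light harvesting up to 3 genes with the smallest p in each direction, and the 2 genes nearest in profile to each member. The members and lists were chosen with earlier results of these data known. The p-values set the difference of the group means against the spread between samples of a group, which may in part be technical. Alternatives covered the log offset, normalization, spread estimate, array weights, filters, the replicate block and each array left out. With 3 arrays a group, precision is limited by their number.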

Additional observations from a re-analysis of the deposited data

How the results depend on the processing

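No member probe set reached an adjusted p under 0.05 in any setting tried. The lowest adjusted p over the settings was 0.21 for CAO, 0.26 and 0.28 for the NOL probe sets, 0.48 for NYC1, 0.73 and 0.83 for those of SGR and 0.79 for RCCR1. NOL stayed lower with BA throughout, with changes from -1.91 to -1.0 and from -1.90 to -0.98 when 1 array was left out, and so did NYC1 (-1.09 to -0.37) and RCCR1 (-0.30 to -0.02). The unadjusted p of the brighter NOL probe set was 0.061 with array weights and 0.093 with an ordinary pooled-variance test. With 1 array left out, CAO ran from -0.02 to 0.53, and the SGR probe sets from -0.50 to 0.21 and from -0.69 to 0.23. Array weights put SGR at 0.05 and 0.07. The cause of these sign changes was not tested.

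The 91 calls over all probe sets became 280 with array weights, 56 without the probe set classes open to cross-hybridization, 1 with the ordinary test and 0 with BA replicates 2 and 3 averaged. They ran from 0 to 142 with 1 array left out, at 0 without BA replicate 2 or BA replicate 3 and 142 without BA replicate 1. The number past 1.5-fold and an unadjusted p under 0.05, 2227 over all arrays, ran from 1487 to 2956. The deviations of same-numbered arrays correlated at 0.422, -0.0133 and 0.423, which was the best match for BA replicates 1 and 3. BA replicate 2 correlated best with untreated replicate 3 (0.271). These values do not settle whether the replicate number pairs the samples. With the replicate block 0 probe sets were called and 2731 passed 1.5-fold and an unadjusted p under 0.05, and the NOL change of -1.43 had an unadjusted p of 0.066.

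Among other named genes, some signs turned. With 1 array left out, CAB2R ran from -0.80 to 0.13, GLK1 from -0.03 to 0.37, OsrbcS, at 0.70 over all arrays, from -0.24 to 1.23, the dim THF1 probe set from -0.18 to 0.36, OsbZIP70 from -0.41 to 0.23, HO1 from -0.49 to 0.29, ERS2 from -0.21 to 0.02 and OSA15 from -0.14 to 0.51. That THF1 probe set was at -0.05 with BA replicates 2 and 3 averaged, and OsbZIP70 at 0.13 with array weights. PORB kept its sign but ran from 0.06 to 0.89. The brightest THF1 probe set stayed between -0.73 and -0.49. The within-array shifts, whose alternatives were added after the data were seen, stayed below 0, from -0.81 to -0.61 for NOL minus NYC1, from -1.41 to -1.02 for NOL minus SGR and from -0.69 to -0.41 for NYC1 minus SGR.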
